A study of Homo sapiens with 4 samples.

Results

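The enzymes that attach glucuronic acid, sulfate or glutathione to drugs, hormones, bile acids and reactive lipids were described in Huh7 cells that overexpressed the kinase STYK1. They were chosen by gene symbol, as every probe set of the array named for a UGT1A, UGT2A, UGT2B, SULT, GST or MGST gene, with 4 pseudogenes left out. This gave 53 of 24607 gene symbols on the array, read by 47 probe sets. A probe set that lists several genes was kept as a signal of its own, and otherwise the probe set with the highest mean stood for its gene, which left 43 signals: 11 of UGT genes, 11 of SULT genes and 21 of GST and MGST genes. Of these, 36 belong to 1 gene each and 7 are shared by several.

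Glucuronidation, sulfonation and glutathione conjugation make up much of phase II metabolism, in which a polar group is added so that a compound can leave the hepatocyte in bile or blood. UGT enzymes sit in the endoplasmic reticulum and take glucuronic acid from UDP-glucuronic acid, and cytosolic SULT enzymes take sulfate from PAPS. GST enzymes are mostly cytosolic and MGST enzymes are membrane proteins, and both join glutathione to electrophiles. In liver many of these genes are under the control of nuclear receptors, of HNF1 and HNF4 factors, of the dioxin receptor AHR or of NRF2, the regulator of the antioxidant response.

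Huh7 is a human hepatocellular carcinoma line. Its cells were transfected with pcFLAG-hSTYK1, a plasmid that carries human STYK1, or with pcFLAG, and RNA from 2 samples of each kind was hybridised to 4 biotin-labelled whole-transcript arrays. The samples are called STYK1 and control here; all come from transfected cells, and neither the time after transfection nor the share of cells that took up plasmid is known here. A bulk signal cannot tell fewer cells that express a gene from less RNA in each cell. The labels do not say whether replicates were cultured separately, and the p-values therefore rest on a spread between samples that may be technical.

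Values are the signals as deposited, read as log2, so a difference of 1 is a doubling. The table has no detection calls. A floor was therefore set on each array at the 95th percentile of 433 probe sets of olfactory receptors, genes not expected in liver cells; it lay between 0.731 and 0.779. A signal under it is not shown to be above background, which does not show that the transcript is absent. Differences are STYK1 minus control from limma, with p-values adjusted by the Benjamini-Hochberg method over all 53617 probe sets, and intervals are 95% and unadjusted. For so few arrays the lowest p that exact two-sided permutation can give is 0.333, and it was not used for single genes. STYK1 itself read 7.40 and 7.86 on the STYK1 arrays, against 0.26 and 0.61 on the control arrays, which are both under the floor, and this is the direction the labels give. All 9 markers of hepatocytes and liver cancer measured, such as ALB and AFP, were above the floor on all 4 arrays, as were 9 of 23 markers of other cell types, namely 3 of 5 cholangiocyte, 3 of 5 immune, 3 of 4 intestinal, 0 of 3 endothelial and 0 of 6 fibroblast and stellate cell markers. The cholangiocyte markers SOX9 and EPCAM and the intestinal markers CDH17 and VIL1 read above 5 on all 4 arrays and the immune marker LYZ above 7. The immune markers CD68 and CD14 were also above the floor on all 4 arrays. PTPRC, a marker of white blood cells, and CD3E, a marker of T cells, were under the floor on each. The part of other cell types in the results was not tested.

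Across the conjugation enzymes, no signal passed the test between STYK1 and control cells, and the differences were small on either side of 0. By limma 1 of all 53617 probe sets passed an adjusted p under 0.05, or 0.00187%, and it was that of transfected STYK1 itself (adjusted p = 0.0373). Of the 43 signals 0 passed, and their adjusted p-values ran from 0.979 to 1. At an unadjusted p under 0.05 there were 3, all of them GST genes: GSTM5, higher in STYK1 cells, and GSTK1 and GSTM4, lower; over all probe sets 4.64% reached that level. Of the 43 differences 23 were above 0 and 20 below, where 51.9% of all probe sets were above 0, with a median of 0.01 beside 0.006 over all probe sets. The groups did not overlap for 18 signals, 12 higher and 6 lower, a share of 41.9% where 32.8% of all probe sets do not overlap (17.4% higher and 15.4% lower). The differences ran from −0.37 to 0.53, and no member reached a doubling or a halving.

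**Figure D1:**
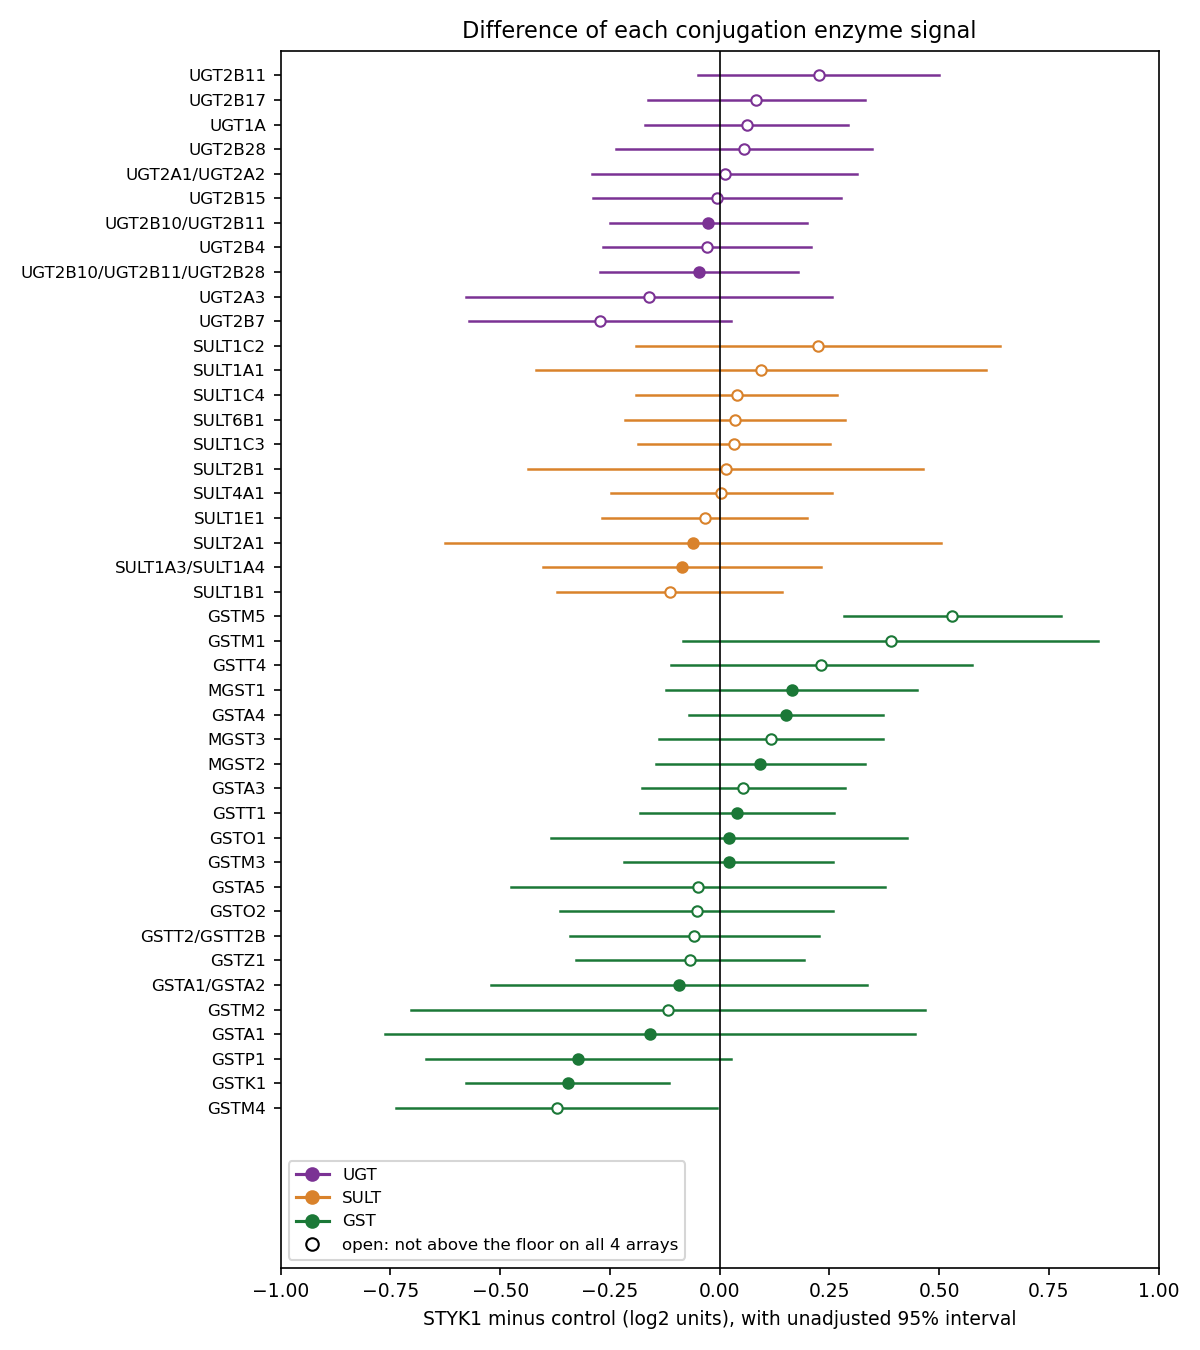
STYK1 minus control for each of the 43 signals, in log2 units on the horizontal axis, with the unadjusted 95% interval of limma as a bar. Colours mark the families, filled points are above the floor on all 4 arrays, and the intervals of GSTM5, GSTK1 and GSTM4 leave out 0.

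Most conjugation enzymes gave no signal, or an unsteady one, above background in these cells. Of the 43 signals, 14 were above the floor on all 4 arrays, a share of 32.6%, beside 43.3% of the 22395 genes with a probe set of their own. The shares are not fully alike, since the 43 include 7 signals shared by several genes, a kind the 43.3% leaves out. These 14 were 2 of 11 UGT signals, both barely above, 2 of 11 SULT signals and 10 of 21 GST and MGST signals. Another 14 were above it on 1 to 3 arrays and 15 on none. Signals above 4 on all 4 arrays came from 5 probe sets: SULT2A1, GSTP1, GSTA1, GSTA4 and the one shared by GSTA1 and GSTA2. Probe sets differ in how well they bind, so these levels do not order the genes by transcript number.

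**Figure D2:**
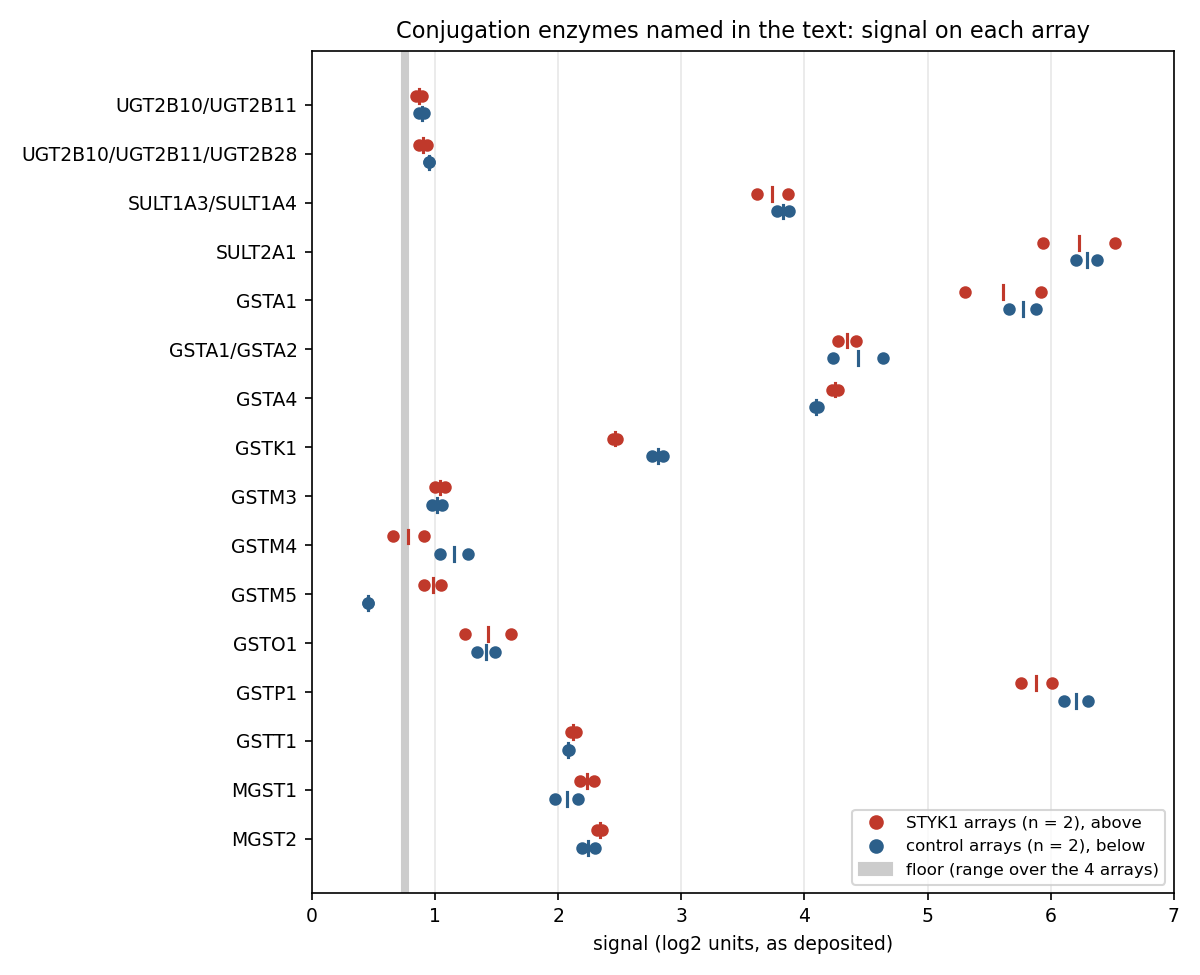
Signal in log2 units on each array for the 14 signals above the floor on all 4 arrays and for GSTM4 and GSTM5. Red points are the 2 STYK1 arrays and blue points below them the 2 control arrays, short bars are group means, and the grey band is the floor, 0.731 to 0.779; GSTK1 and GSTP1 are lower on both STYK1 arrays than on either control array.

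Most UGT signals lay at background in both groups, with 7 of 11 under the floor on all 4 arrays. The 9 genes of the UGT1A locus, which includes the bilirubin enzyme UGT1A1, have first exons of their own and common later exons, and 1 probe set reads all 9. It gave 0.59 and 0.61 on the STYK1 arrays, against 0.58 and 0.49 on the control arrays, under the floor on each. UGT2B7, which conjugates morphine, steroids and bile acids, read 0.47 and 0.47 on the STYK1 arrays, against 0.62 and 0.86 on the control arrays. Its groups did not overlap, but only control replicate 2 was above the floor, and the difference of −0.27 had an interval of −0.57 to 0.03 (limma, adjusted p = 0.979). UGT2B4, UGT2B15, UGT2B17 and UGT2B28, liver enzymes of bile acid or steroid conjugation, UGT2B11 and the probe set shared by UGT2A1 and UGT2A2 were under the floor on all 4 arrays, with signals of 0.09 to 0.52. Within this group UGT2B11 had the largest difference, 0.23, between values of 0.38 and 0.52 on the STYK1 arrays and 0.16 and 0.29 on the control arrays, none of them above background. UGT2A3 read 0.64 and 0.47 on the STYK1 arrays, against 0.90 and 0.52 on the control arrays, and overlapped.

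The UGT signals above the floor on all 4 arrays were both shared. The probe set of UGT2B10, which conjugates nicotine, and UGT2B11 read 0.84 and 0.89 on the STYK1 arrays, against 0.91 and 0.87 on the control arrays. That of UGT2B10, UGT2B11 and UGT2B28 read 0.87 and 0.94 on the STYK1 arrays, against 0.95 and 0.95 on the control arrays. Their differences were −0.03 (interval −0.25 to 0.20) and −0.05 (interval −0.27 to 0.18). The probe set of UGT2B11 alone and that of UGT2B28 alone were under the floor. No probe set reads UGT2B10 alone, so the shared signals cannot be given to 1 gene. The likeness of these genes extends to their promoters. The 250 bases before the start of UGT2B10 (GRCh38.p14 chr4:68815744-68815993, plus strand) and of UGT2B11 (chr4:69214749-69214998, minus strand), from RefSeq, matched at 229 of 254 aligned positions, with 17 mismatches and 8 positions in gaps. They are shown 5′ to 3′ because shared probe sets gave the 2 signals of the family above the floor on all 4 arrays, and capitals mark bases that differ or have no partner.
UGT2B10: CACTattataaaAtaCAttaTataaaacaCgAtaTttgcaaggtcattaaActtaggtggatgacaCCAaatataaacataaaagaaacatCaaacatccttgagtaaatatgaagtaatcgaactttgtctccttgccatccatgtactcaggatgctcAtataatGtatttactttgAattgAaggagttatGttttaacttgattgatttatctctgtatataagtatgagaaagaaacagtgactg
UGT2B11: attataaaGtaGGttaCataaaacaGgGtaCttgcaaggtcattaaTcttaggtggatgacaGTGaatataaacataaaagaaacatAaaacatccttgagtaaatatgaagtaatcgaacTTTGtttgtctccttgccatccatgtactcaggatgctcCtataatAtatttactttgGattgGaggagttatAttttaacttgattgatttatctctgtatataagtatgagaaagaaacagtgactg

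Among the sulfotransferases SULT2A1 and the SULT1A3/SULT1A4 probe set were above the floor on all 4 arrays, and neither separated the groups. SULT2A1, which sulfonates DHEA and bile acids, read 5.94 and 6.53 on the STYK1 arrays, against 6.21 and 6.38 on the control arrays. The STYK1 values lay on both sides of the control values. The difference of −0.06 had an interval of −0.62 to 0.50 (limma, adjusted p = 0.999), and it turned to 0.23 without STYK1 replicate 1 and to 0.02 without control replicate 2. SULT1A3 and SULT1A4 are copies of 1 gene for the enzyme that acts on dopamine and other catecholamines. Their probe set also lists SLX1A and SLX1B, genes of a DNA repair nuclease next to each copy, and the signal cannot be divided among them. It read 3.86 and 3.61 on the STYK1 arrays, against 3.88 and 3.78 on the control arrays, a difference of −0.09 (interval −0.40 to 0.23) that turned to 0.04 without STYK1 replicate 2. The 250 bases before the start of SULT1A3 and of SULT1A4 are identical in RefSeq at 250 of 250 positions.

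None of the other 9 SULT signals was above the floor on all 4 arrays. SULT1C2 came nearest, above the floor on 3 arrays, with 0.75 and 1.16 on the STYK1 arrays, against 0.70 and 0.77 on the control arrays, and overlapped. SULT1A1, the main phenol sulfotransferase of liver, read 0.49 and 1.02 on the STYK1 arrays, against 0.60 and 0.72 on the control arrays, and only STYK1 replicate 2 was above the floor. SULT2B1, which sulfonates cholesterol, was above it only in STYK1 replicate 1, at 0.76. SULT1B1, which acts on thyroid hormones, the estrogen sulfotransferase SULT1E1, SULT1C3, SULT1C4, the brain enzyme SULT4A1 and SULT6B1 were above it on 0 of 4 arrays. The differences of these 9 ran from −0.11 for SULT1B1 to 0.22 for SULT1C2.

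The alpha class of glutathione transferases gave some of the strongest signals, with overlapping groups for GSTA1 and a small separation for GSTA4. GSTA1, with GSTA2 the main alpha enzyme of hepatocytes, read 5.30 and 5.92 on the STYK1 arrays, against 5.66 and 5.88 on the control arrays. The probe set shared by GSTA1 and GSTA2 read 4.27 and 4.42 on the STYK1 arrays, against 4.23 and 4.64 on the control arrays. Replicate 1 read lower than replicate 2 in each group in both probe sets, an order found for 4 of the 14 signals above the floor, with the reverse for 3 and opposite orders in the groups for 7. The difference of GSTA1, −0.16 (interval −0.76 to 0.45), turned to 0.15 without STYK1 replicate 1, and that of the shared probe set, −0.09 (interval −0.52 to 0.34), turned to 0.11 without control replicate 2. GSTA4, which clears the lipid peroxidation product 4-hydroxynonenal, read 4.23 and 4.27 on the STYK1 arrays, against 4.11 and 4.09 on the control arrays. It was higher on both STYK1 arrays by 0.15 (standard error 0.08) and did not pass (limma, adjusted p = 0.979; interval −0.07 to 0.37). GSTA3, an isomerase of steroid synthesis, was under the floor on all 4 arrays, and GSTA5 was above it on 2.

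GSTA1 and GSTA2 have near-identical promoters, and 1 probe set reads both, so they are shown together with their differing bases in capitals. The 250 bases before the start of GSTA1 (GRCh38.p14 chr6:52803817-52804066, minus strand) and of GSTA2 (chr6:52763476-52763725, minus strand), from RefSeq, matched at 243 of 250 positions, where GSTA1 and GSTA3 matched at 127 of 276 aligned positions.
GSTA1: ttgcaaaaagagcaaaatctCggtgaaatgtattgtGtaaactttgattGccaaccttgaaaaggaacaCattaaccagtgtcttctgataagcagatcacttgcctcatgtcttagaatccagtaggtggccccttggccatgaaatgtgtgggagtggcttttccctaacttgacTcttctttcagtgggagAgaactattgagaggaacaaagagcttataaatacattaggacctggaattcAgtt
GSTA2: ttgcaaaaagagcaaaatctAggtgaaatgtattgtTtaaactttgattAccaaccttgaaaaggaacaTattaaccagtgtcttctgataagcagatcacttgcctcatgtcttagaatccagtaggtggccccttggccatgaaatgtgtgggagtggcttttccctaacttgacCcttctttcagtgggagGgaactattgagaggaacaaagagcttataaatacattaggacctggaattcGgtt

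GSTP1 and GSTK1 were lower on both STYK1 arrays, each by about the same amount, and neither passed the test over all probe sets. GSTP1, the pi class enzyme, is sparse in normal hepatocytes and often silenced by promoter methylation in liver cancer. It read 6.01 and 5.76 on the STYK1 arrays, against 6.11 and 6.30 on the control arrays. Its mean was 5.88 ± 0.18 in STYK1 cells and 6.21 ± 0.13 in control cells (SD, n = 2 each), a difference of −0.32 (standard error 0.13), or 0.80-fold (limma, adjusted p = 0.979; interval −0.67 to 0.02). GSTK1, the kappa class enzyme of mitochondria and peroxisomes, read 2.48 and 2.44 on the STYK1 arrays, against 2.85 and 2.76 on the control arrays. Its mean was 2.46 ± 0.02 in STYK1 cells and 2.81 ± 0.06 in control cells (SD, n = 2 each), a difference of −0.35 (standard error 0.09), or 0.787-fold. It had an unadjusted p of 0.0126 and an adjusted p of 0.979 (limma), and 1.91% of all probe sets were lower at an unadjusted p under 0.05. Without any 1 array the difference stayed between −0.39 and −0.30 for GSTK1 and between −0.45 and −0.20 for GSTP1.

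The mu class lay near the floor, and its differences went both ways. GSTM5 read 0.91 and 1.05 on the STYK1 arrays, against 0.45 and 0.45 on the control arrays. Its 2 control values were identical (SD 0), as they were for 242 of all probe sets, so its measured spread came from the STYK1 arrays alone. The control arrays were under the floor, so the fitted difference of 0.53 (limma, unadjusted p = 0.00301, adjusted p = 0.979) depends on background. With the control values raised to the floor the STYK1 mean was 1.18-fold higher, a figure that carries no error. With the floor at the 99th percentile, 0.94 on STYK1 replicate 1, that array was under it as well. Over all probe sets 2.73% were higher at an unadjusted p under 0.05. GSTM4 read 0.91 and 0.66 on the STYK1 arrays, against 1.27 and 1.04 on the control arrays, with STYK1 replicate 2 under the floor. Its difference was −0.37 (interval −0.74 to −0.01; limma, unadjusted p = 0.0475, adjusted p = 0.979). GSTM1, a gene with a common deletion in human populations, read 1.00 and 0.80 on the STYK1 arrays, against 0.73 and 0.29 on the control arrays, a difference of 0.39 with an interval of −0.08 to 0.86. GSTM2 read 1.11 and 0.48 on the STYK1 arrays, against 0.87 and 0.96 on the control arrays. GSTM3, the only mu signal above the floor on all 4 arrays, read 1.00 and 1.08 on the STYK1 arrays, against 1.06 and 0.98 on the control arrays, and the sign of its difference of 0.02 turned without STYK1 replicate 2 or without control replicate 2. The mu genes are close copies in 1 cluster, and near-identical transcripts may bind the same probe set, but the likeness of their transcripts was not measured. The promoters of GSTM1 and GSTM5 matched at 218 of 257 aligned positions, which does not bear on binding to a probe set.

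The theta, omega and zeta classes showed no separation beyond a few hundredths where they were above the floor on all 4 arrays. GSTT1, a theta enzyme that acts on small halogenated compounds, read 2.10 and 2.14 on the STYK1 arrays, against 2.09 and 2.08 on the control arrays. Its difference was 0.04 (interval −0.18 to 0.26), and it was −0.002 after quantile normalization. GSTO1, the omega enzyme with thioltransferase and dehydroascorbate reductase activity, read 1.25 and 1.62 on the STYK1 arrays, against 1.34 and 1.49 on the control arrays. Its difference was 0.02 (interval −0.38 to 0.43). It was −0.17 without STYK1 replicate 2, 0.21 without STYK1 replicate 1, −0.05 without control replicate 1 and −0.01 after quantile normalization. GSTO2 was above the floor on 2 arrays and the probe set of GSTT2 and GSTT2B on 3. GSTZ1, which isomerises maleylacetoacetate in tyrosine breakdown, read 0.67 and 0.84 on the STYK1 arrays, against 0.84 and 0.81 on the control arrays. GSTT4 read 0.74 and 1.05 on the STYK1 arrays, against 0.66 and 0.67 on the control arrays, and was above the floor only in STYK1 replicate 2. It was higher on both STYK1 arrays, where 17.4% of all probe sets separate in that direction. The difference of GSTT4 was 0.23 (interval −0.11 to 0.57).

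The membrane-bound enzymes MGST1 and MGST2 were higher on both STYK1 arrays than on either control array, by 0.16 and 0.09, where 17.4% of all probe sets separate in that direction, and neither passed by limma at an adjusted or an unadjusted p under 0.05. MGST1, a transferase and peroxidase of endoplasmic reticulum and mitochondria, read 2.29 and 2.18 on the STYK1 arrays, against 1.98 and 2.16 on the control arrays. MGST2, which can make leukotriene C4, read 2.36 and 2.32 on the STYK1 arrays, against 2.30 and 2.19 on the control arrays. MGST3 read 0.60 and 0.65 on the STYK1 arrays, against 0.58 and 0.43 on the control arrays, under the floor on each. Another probe set of MGST3, also under the floor, went the other way, with 0.45 and 0.45 on the STYK1 arrays, against 0.44 and 0.68 on the control arrays. The gap between the groups was small for MGST1, which read 2.18 on the lower STYK1 array and 2.16 on the higher control array.

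By family, 5 UGT signals had a difference above 0 and 6 below, with a median of −0.006. For SULT signals these counts were 7 and 4 with a median of 0.01, which was −0.06 over the signals above the floor on at least 2 arrays, and for GST and MGST signals 11 and 10 with a median of 0.02, which was −0.01 after quantile normalization and −0.05 over the signals above the floor on at least 2 arrays. Groups did not overlap for 4 UGT signals (36.4%), 2 SULT signals (18.2%) and 12 GST and MGST signals (57.1%), where 32.8% of all probe sets do not overlap. Of the 14 signals above the floor on all 4 arrays 6 were higher and 8 lower, with a median of −0.04, and their mean deviation from each gene's own mean was −0.07 and 0.02 on the STYK1 arrays, against −0.01 and 0.05 on the control arrays. STYK1 replicate 1 was thus the lowest array for this set, and the groups overlapped. The 95% intervals of all 14 lay within a log2 difference of 1 on either side, and 1 of them, that of GSTK1, left out 0.

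**Figure D3:**
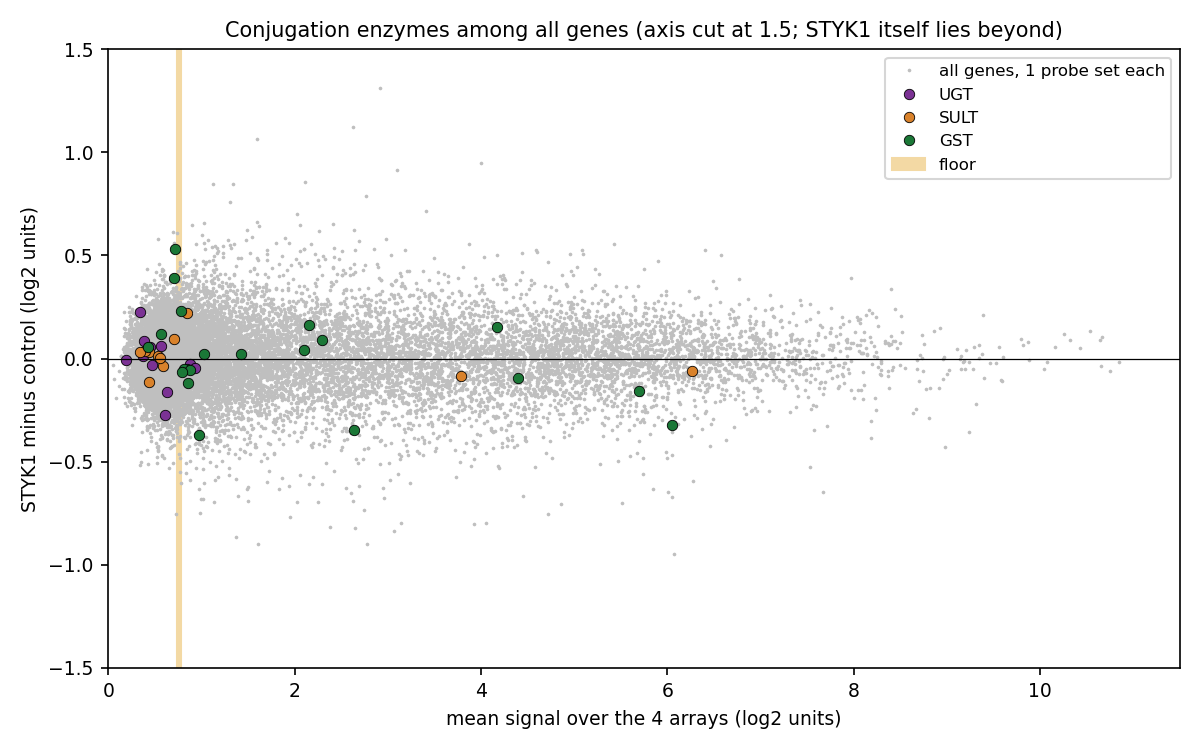
STYK1 minus control against the mean signal over the 4 arrays, both in log2 units, with 1 grey point for each of 22395 genes and coloured points for the UGT, SULT and GST signals; the vertical band is the floor. The conjugation enzymes lie within the spread of the other genes at all signal levels, and the vertical axis leaves out points beyond 1.5, STYK1 among them.

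The other genes of conjugation were followed in lists of their cofactor supply, controllers, fellow target genes and exporters, of which 73 of 92 listed genes were measured with a probe set of their own and 59 were above the floor on all 4 arrays. By limma 0 of the 73 passed an adjusted p under 0.05, and 2 higher and 3 lower had an unadjusted p under 0.05, where 2.73% of all probe sets were higher and 1.91% lower at that level. The groups did not overlap for 7 higher and 11 lower genes, or 24.7%, where 32.8% of all probe sets do not overlap. All 3 genes of UDP-glucuronic acid supply overlapped, with UGDH, which makes this cofactor, at 9.22 and 9.04 on the STYK1 arrays, against 9.07 and 9.10 on the control arrays.

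Of the genes that supply PAPS, 1 was higher and 6 lower, with a median of −0.08. The sulfate transporter SLC26A1 was the one that separated, at 1.02 and 0.95 on the STYK1 arrays, against 1.27 and 1.27 on the control arrays, a difference of −0.28 (limma, unadjusted p = 0.0233, adjusted p = 0.979). PAPSS2, which makes PAPS, differed by −0.15 and overlapped. Of 9 genes of glutathione supply 7 were higher and 2 lower, with a median of 0.03, and all 9 overlapped. CTH, which makes cysteine, read 5.89 and 4.81 on the STYK1 arrays, against 4.33 and 5.36 on the control arrays. The cystine importer SLC7A11 read 7.78 and 7.35 on the STYK1 arrays, against 7.04 and 7.52 on the control arrays. In both genes STYK1 replicate 1 was the highest array and control replicate 1 the lowest. ACY3, an aminoacylase that acts on mercapturic acids, the end products of glutathione conjugation, had the most negative difference of the lists, −0.52, with 3.69 and 3.57 on the STYK1 arrays, against 4.29 and 4.01 on the control arrays (limma, unadjusted p = 0.0111, adjusted p = 0.979).

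Of 11 measured controllers 3 were higher and 8 lower, with a median of −0.09. MAFG, a small MAF protein that pairs with NRF2 on DNA, read 2.88 and 2.84 on the STYK1 arrays, against 2.35 and 2.47 on the control arrays, a difference of 0.46 (standard error 0.09; limma, unadjusted p = 0.00516, adjusted p = 0.979). NFE2L2, the gene of NRF2, read 4.96 and 4.82 on the STYK1 arrays, against 4.37 and 4.81 on the control arrays, so STYK1 replicate 2 lay just above control replicate 2. CEBPA, a liver transcription factor, differed by −0.23. Other target genes of NRF2 or AHR were higher for 5 and lower for 7 of 12, with a median of −0.04. Among them CYP1A1, the cytochrome induced through AHR, read 3.01 and 2.75 on the STYK1 arrays, against 3.15 and 3.59 on the control arrays, a difference of −0.49 (limma, adjusted p = 0.979), while HMOX1, the heme oxygenase, differed by −0.31 and TIPARP by 0.25, both with overlapping groups.

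Of 12 other conjugating enzymes 2 were above the floor on all 4 arrays, the methyltransferases TPMT and HNMT, with differences of 0.02 and 0.05. Deconjugating enzymes included the steroid sulfatase STS, at 1.69 and 1.70 on the STYK1 arrays, against 1.46 and 1.45 on the control arrays, a difference of 0.24 (limma, unadjusted p = 0.0354, adjusted p = 0.979), and the arylsulfatase ARSB at −0.16. The exporters ABCC1, ABCC5 and ABCC2, which carry glutathione or glucuronide conjugates or nucleotide analogues, differed by 0.26, −0.18 and 0.14.

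**Figure D4:**
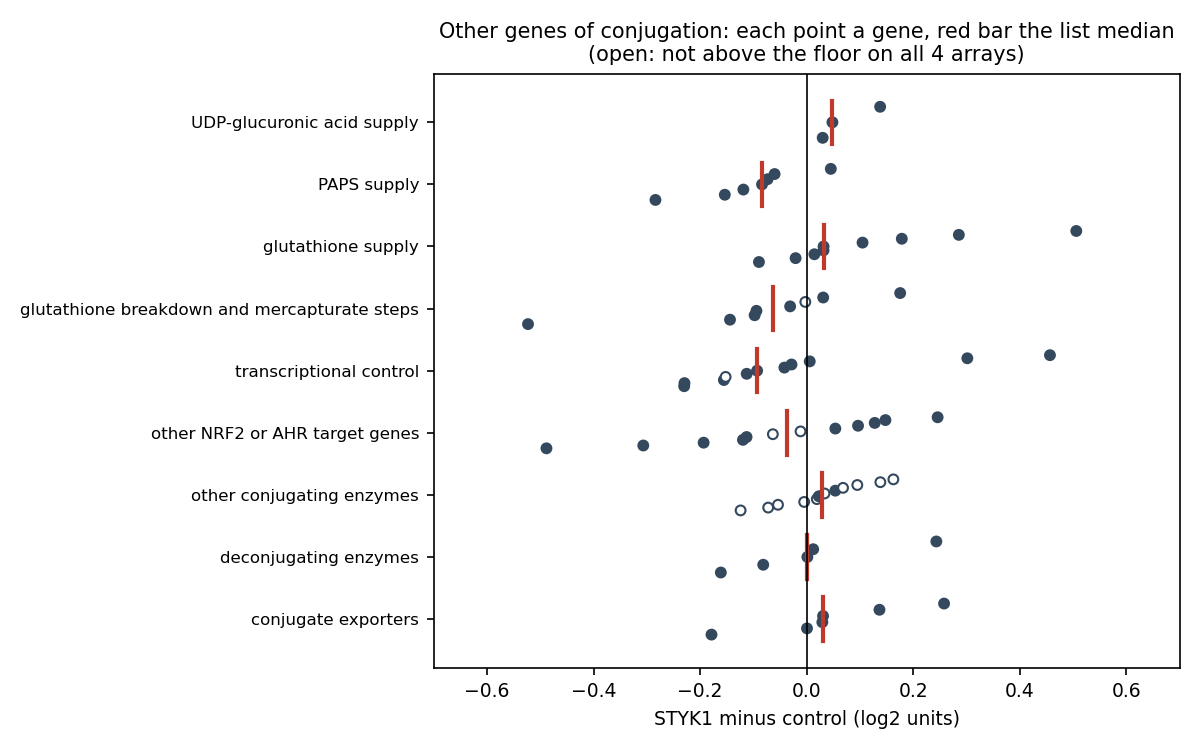
STYK1 minus control in log2 units for each of the 73 other genes of conjugation, by list, with the list median as a red bar. Open points are not above the floor on all 4 arrays; list medians lie between −0.09 and 0.05, and ACY3, CYP1A1, MAFG and CTH are the outermost points.

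Promoters of the members were searched for TGACNNNGC, the core of the antioxidant response element that NRF2 binds with small MAF proteins, on both strands of the 250 bases before the start, with 1 start taken per gene. It occurred in 9 of 43 member promoters that the RefSeq table holds, or 20.9%, and in 11.0% of 27305 promoters. Members with a match were GSTA4, GSTM1, GSTM5, GSTO1, GSTP1, SULT1C2, UGT1A5, UGT2B10 and UGT2B11. The promoters of UGT2B10 and UGT2B11 matched each other at 229 of 254 aligned positions and those of GSTM1 and GSTM5 at 218 of 257. The 9 are therefore not 9 separate cases. Of the 7 matched members with a probe set of their own 6 had a difference above 0, where 51.9% of all probe sets did. The search was made after the values were seen, and this count was not tested. The 6 were GSTA4 at 0.15, GSTM1 at 0.39, GSTM5 at 0.53, SULT1C2 at 0.22, UGT2B11 at 0.23 and GSTO1 at 0.02, where GSTO1 turned sign under other settings. GSTP1 had a difference of −0.32. Only GSTA4, GSTO1 and GSTP1 among the 7 were above the floor on all 4 arrays, and none of the 7 passed an adjusted p under 0.05 by limma. The probe set of UGT2B11 alone was under the floor on all 4 arrays. The shared probe sets that list UGT2B11 were above it and went the other way, with differences of −0.03 and −0.05. GCGTG, the core of the AHR element, occurred in 11 of the 43, or 25.6%, and in 31.9% of all promoters. TATAAA, searched in the same way, occurred in 12 of the 43, or 27.9%, and in 11.1% of all promoters. TGANTCA, the AP-1 element, occurred in 6.60% of all promoters and in that of GSTP1 alone among the 43, where it lies within the TGACNNNGC match. The promoter of GSTP1 held 28 CG pairs, that of GSTA1 held 1, and the median was 2 over the members and 11 over all promoters. The promoters of GSTP1 (GRCh38.p14 chr11:67583562-67583811, plus strand), GSTA4 (chr6:52995285-52995534, minus strand) and GSTM5 (chr1:109712001-109712250, plus strand) are shown with the TGACNNNGC match in capitals, to show how far the letters of the match and its place vary. A match is a description of the letters and not a measured binding site.
GSTP1: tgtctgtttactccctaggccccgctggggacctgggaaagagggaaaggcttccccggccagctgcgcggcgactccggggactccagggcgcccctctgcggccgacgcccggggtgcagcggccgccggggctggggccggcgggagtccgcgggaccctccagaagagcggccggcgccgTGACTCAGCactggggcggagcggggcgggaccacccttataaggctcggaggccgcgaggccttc
GSTA4: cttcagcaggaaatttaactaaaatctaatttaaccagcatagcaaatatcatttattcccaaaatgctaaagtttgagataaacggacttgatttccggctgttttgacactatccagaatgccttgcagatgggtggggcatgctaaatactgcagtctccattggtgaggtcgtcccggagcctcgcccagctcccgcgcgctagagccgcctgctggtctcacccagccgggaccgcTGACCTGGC
GSTM5: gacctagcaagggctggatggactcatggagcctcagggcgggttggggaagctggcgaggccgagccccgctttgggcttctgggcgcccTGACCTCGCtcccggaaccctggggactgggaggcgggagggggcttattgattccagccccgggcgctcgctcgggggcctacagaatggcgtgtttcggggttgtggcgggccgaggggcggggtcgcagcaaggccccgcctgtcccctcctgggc
The match ends 58 bases before the start in GSTP1, 1 base before it in GSTA4 and 151 bases before it in GSTM5.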

How the data were processed

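Per the labels, total RNA was isolated with an RNeasy kit and turned into biotin-labelled cDNA with Affymetrix kits. Log2 signals of 53617 probe sets on 4 arrays were deposited. The submitters' processing notes name the Transcriptome Analysis Console; the summarization and normalization are not stated in what was used here. Base 2 was inferred: as natural logarithms the array maxima would stand for 82224 to 84779, above the 65535 of a 16-bit scanner. Array medians lay between 0.615 and 0.629, so no further scaling was applied; processing that shrinks dim signals would lower the differences of dim genes. The number of arrays limits the precision, with a median standard error of 0.108.

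Samples were grouped by title. Probe sets were named from the platform annotation: 23871 had 1 symbol, 1842 several and 27904 none here. Signals shared by several genes are named as shared. Group means were compared with limma 3.58.1 in R 4.3.3 (lmFit, eBayes), two-sided, with 2 residual and 2.71 prior degrees of freedom, and tested on simulated data. Named with all values were members above the floor on all 4 arrays or with an unadjusted p under 0.05, and others in groups; other members with values per array were picked after their values were seen; from other lists up to 3 genes were named by size of difference. The members, lists and floor were chosen with earlier results of these data known. The promoter search and the choice of promoters shown were made after the values were seen. Promoters and likeness come from the RefSeq table of GRCh38.p14; the files name no build.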

Additional observations from a re-analysis of the deposited data

How the results depend on the processing

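All alternatives were planned. Of 160 differences of the 16 named members under other settings, 149 kept direction and 11 turned sign. In the settings that keep all 4 arrays no named member passed, with adjusted p-values of 0.925 to 1 (limma). With the replicate number as a block even STYK1 itself did not pass, so an unchanged call says little of the members. Leaving out 1 array at a time, with the lone array of a group assumed to vary like the other group, moved GSTM3 between −0.020 and 0.061, GSTO1 between −0.17 and 0.21, SULT1A3/SULT1A4 between −0.21 and 0.039, SULT2A1 between −0.35 and 0.23, GSTA1/GSTA2 between −0.30 and 0.11 and GSTA1 between −0.47 and 0.15. Quantile normalization turned GSTO1 to −0.011 and GSTT1 to −0.0020. Leaving out 1 array gave 0 probe sets changed in each case, 0 members changed, 2 to 7 members at an unadjusted p under 0.05, the 7 without STYK1 replicate 1, and 27 to 33 whose groups do not overlap, since 1 array against 2 overlaps less often by construction. The family medians then ran from −0.036 to 0.0062 for UGT, from 0.00027 to 0.031 for SULT and from 0.020 to 0.058 for GST signals. They were 0.0053 for SULT and −0.011 for GST after quantile normalization, −0.011 for UGT and 0.0085 for SULT with arrays centred on their medians, and −0.016 for UGT and 0.0085 for SULT with every probe set counted. With only probe sets above the floor on at least 2 arrays they were −0.036 for UGT, −0.060 for SULT and −0.051 for GST, and 10 members did not overlap, since fewer members are left. Arrays of a group differed in the family median by an SD of 0.0038 for UGT, 0.0018 for SULT and 0.018 for GST signals, and each value given here other than 0.020 for GST lies further than that from the reported median; the cause was not tested. A floor at the 99th percentile left 11 members above it. Arrays with the same number did not deviate together (correlation −0.044) and were not taken as pairs. With the replicate number as a block, 0 probe sets and 0 members passed. Signals near the floor limit what can be said of 29 members.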
